A study of Mus musculus with 295 samples.

Results

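The 10 genes described here, Adgre1, Cd68, Csf1r, Tyrobp, Fcer1g, Laptm5, Mpeg1, Cd53, C1qb and C1qc, are widely used to recognise macrophages in mouse tissue. They were taken from a list of symbols, by the rule that a gene has a probe in the platform's annotation measured on at least 90% of the arrays. All 10 met it, each with a single probe, out of 11454 genes so measured. The data are adipose tissue RNA from 295 F2 mice of both sexes. Their parental strains were C57BL/6J and C3H/HeJ, each on an ApoE null background, so every mouse lacked ApoE, and all were fed a "Western" diet, high in fat, between 8 and 24 weeks of age. Each mouse was hybridised on 1 array, its RNA in Cy3 against a Cy5 pool to which every RNA gave the same amount, so a value is a level relative to that pool and says nothing of one gene's abundance against another's.

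Macrophages are phagocytes that settle in every tissue, and in fat they collect around dying fat cells and increase in obesity. Their survival depends on signalling through the receptor encoded by Csf1r, and many of their surface receptors have no signalling part of their own and act through small adaptor proteins with an ITAM, the motif that recruits the kinase Syk. The C1q chains begin the classical complement pathway, and macrophages are a main source of them. Tyrobp and Fcer1g are also used by natural killer and mast cells, and Cd53 and Laptm5 by leukocytes in general. In a bulk tissue sample, fewer cells of a type and less RNA per cell cannot be told apart.

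The labels put all mice in 1 group and give no sex, genotype or weight. Sets of mice were therefore taken from the data by Eif2s3y, a gene of the Y chromosome, with a log10 ratio of -0.6 as the boundary. The 153 Eif2s3y-high mice had log2 ratios between -0.10 and 1.77 and the 142 Eif2s3y-low mice between -6.51 and -4.16, so no mouse lay near the boundary. Of the Eif2s3y-high arrays, 48 also carried transcripts typical of the epididymis and 105 did not (called epididymis-free here), and results that could rest on those 48 arrays are given with and without them. In 1 Eif2s3y-high mouse, number 310, the Y-linked gene Kdm5d disagreed with Eif2s3y. Arrays were not repeated, so the spread between mice includes measurement error, and the number of arrays limits the precision. A ratio to a pool of the same tissue cannot show whether the defining markers of fat were abundant.

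Promoter sequence was at hand for 7 of the genes, and is shown because the members moved together across mice. The letters GAGGAA, the core of sites bound by PU.1, the myeloid transcription factor encoded by Spi1, were searched on both strands from 250 bases before to 50 bases after each start site. They occurred for Cd53, Laptm5, C1qb, C1qc and Cd68, 5 of 7 genes, against 28.3% of all promoter windows in the RefSeq table (9289 of 32851), and did not occur for Fcer1g or Mpeg1. Each line gives 100 bases of GRCm38.p6, 5′ to 3′ on the gene's strand, with GAGGAA or its reverse complement in capitals. The windows are chr3:106790150-106790249 (minus strand) for Cd53, chr4:130913216-130913315 (plus) for Laptm5, chr4:136886201-136886300 (minus) for C1qb, chr4:136893055-136893154 (minus) for C1qc and chr11:69666321-69666420 (minus) for Cd68.
Cd53: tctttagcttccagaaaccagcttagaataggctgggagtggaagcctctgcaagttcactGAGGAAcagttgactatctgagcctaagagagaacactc
Laptm5: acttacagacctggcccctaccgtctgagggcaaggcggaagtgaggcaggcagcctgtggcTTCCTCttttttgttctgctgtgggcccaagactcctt
C1qb: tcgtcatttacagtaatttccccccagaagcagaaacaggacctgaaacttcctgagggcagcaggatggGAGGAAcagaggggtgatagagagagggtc
C1qc: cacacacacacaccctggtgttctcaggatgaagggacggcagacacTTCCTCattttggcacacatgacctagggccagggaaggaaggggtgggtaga
Cd68: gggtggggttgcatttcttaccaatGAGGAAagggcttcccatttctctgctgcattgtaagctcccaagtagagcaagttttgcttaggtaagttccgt
The motif shown began 39 bases before the start site in Cd53, 38 in Laptm5 and 30 in C1qb, and farther upstream in C1qc, at 193 bases, and Cd68, at 225. C1qb and C1qc are neighbours on chromosome 4, beside C1qa. A match is a description of the letters only.

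The macrophage genes were among the most variable transcripts of the tissue. Their SD over mice had a median of 0.77 log2 units, against 0.29 over all 22894 probes. Sizes in log2 units and folds rest on reading the deposited values as log10 ratios, a base that the values do not settle, while r and p do not depend on it. Adgre1, which encodes the surface receptor known as F4/80, was lowest at -3.04, had a median of -0.04 and was highest at 1.46 log2 units. Its SD was 0.91 ± 0.04 (SE, n = 295), larger than that of 96.6% of probes, and the central 90% of mice spanned 7.50-fold. Mpeg1, the gene of a pore-forming protein that kills engulfed bacteria, ran from -2.92 through -0.15 to 1.25 in the 286 mice with a value. With gaps filled by the probe mean, its SD was 0.84 ± 0.04 and its span 7.23-fold (n = 295). It had no value in 9 mice, 6 Eif2s3y-high and 3 Eif2s3y-low, whose Adgre1 median was 0.41. These 2 genes had the widest spans of the list.

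The adaptor genes differed a little from each other. Tyrobp, which encodes the ITAM adaptor DAP12, ran from -2.25 through -0.11 to 1.34 (SD 0.81 ± 0.03). Fcer1g, the gene of the common gamma chain of Fc receptors, ran from -2.05 through -0.12 to 1.17 (n = 294). Its SD was 0.68 ± 0.03 with its 1 gap filled by the probe mean. The spans, with that gap filled, were 6.66-fold for Tyrobp and 4.66-fold for Fcer1g. Cd68, a glycoprotein of late endosomes and lysosomes, ran from -2.40 through -0.13 to 1.29 and spanned 6.17-fold. Laptm5, a lysosomal membrane protein of blood-forming lineages, ran from -2.14 through -0.28 to 1.63 and spanned 5.65-fold. Cd53, a tetraspanin of leukocytes, ran from -2.27 through -0.12 to 1.81 and spanned 6.07-fold. The lysosomal genes and Cd53 therefore lay between Adgre1 and the complement genes in spread.

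Csf1r and the C1q genes had the smallest SDs. Csf1r ran from -1.71 through -0.16 to 0.93, with an SD of 0.51 ± 0.02 and a span of 3.14-fold, and still exceeded 86.7% of probes in SD. C1qb ran from -1.96 through -0.21 to 1.35 (SD 0.65 ± 0.03, span 4.82-fold), and C1qc from -2.23 through -0.19 to 1.41 (SD 0.64 ± 0.03, span 4.46-fold). The SDs of C1qb and C1qc lay within 1 SE of each other.

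Every member was higher in Eif2s3y-high than in Eif2s3y-low mice. Adgre1 ran from -1.79 through 0.50 to 1.46 in the 105 epididymis-free Eif2s3y-high mice. It ran from -1.78 through -0.11 to 0.81 in the 48 Eif2s3y-high mice with epididymis transcripts, and from -3.04 through -0.61 to 1.27 in Eif2s3y-low mice. The sets overlapped, and both had mice well above the pool, but every value under -1.79 was in an Eif2s3y-low mouse. Over all Eif2s3y-high mice Adgre1 was higher by 0.84 ± 0.09 log2 units (SE, n = 153 and 142), with a limma Benjamini-Hochberg adjusted p of 7.39e-16. An adjusted p under 0.05 over all probes is the threshold for every limma result here.

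**Figure D1:**
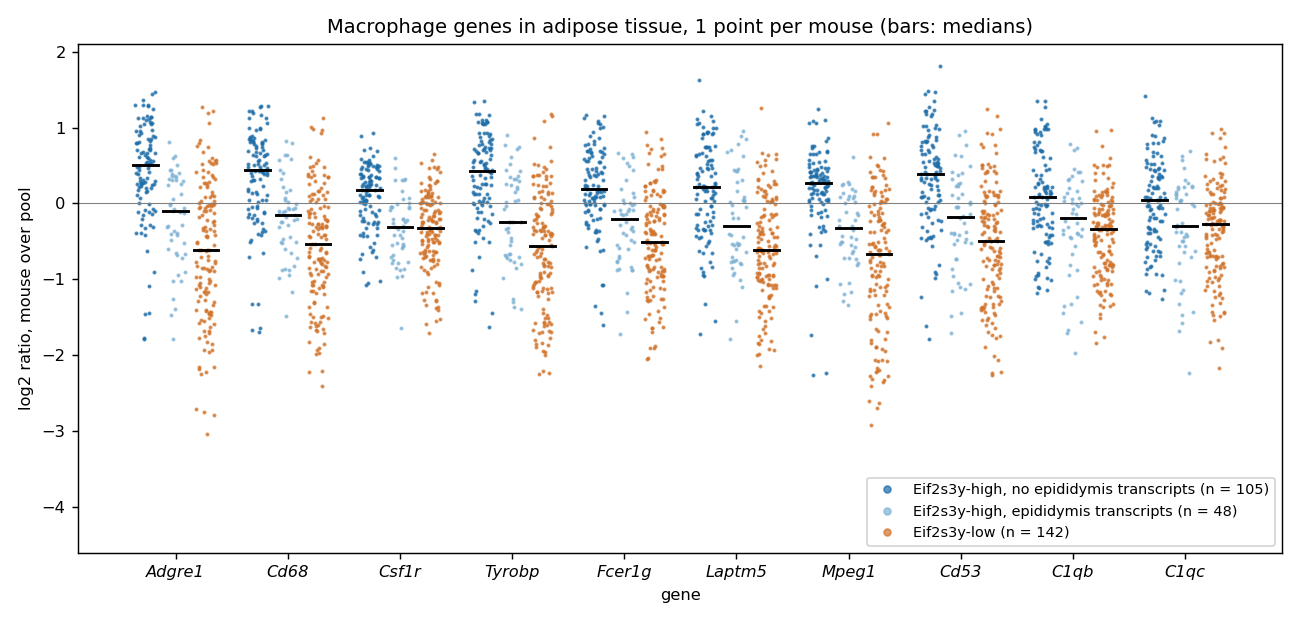
Level of each macrophage gene as log2 ratio of mouse over pool (vertical axis) by gene (horizontal axis), 1 point per mouse, in epididymis-free Eif2s3y-high mice, Eif2s3y-high mice with epididymis transcripts and Eif2s3y-low mice, with black bars at the medians. Sets overlap for every gene, and the Adgre1 medians are 0.50, -0.11 and -0.61.

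All 10 members passed as higher, where 31.3% of the probes tested were higher and 39.6% lower. The differences were 0.78 ± 0.08 for Tyrobp, 0.77 ± 0.09 for Mpeg1, 0.73 ± 0.08 for Cd68 and 0.68 ± 0.09 for Cd53. They were 0.64 ± 0.08 for Laptm5 and 0.55 ± 0.07 for Fcer1g. The genes of the least spread also differed least, C1qb by 0.36 ± 0.07, Csf1r by 0.33 ± 0.06 and C1qc by 0.27 ± 0.07 (adjusted p = 0.000451). With the epididymis arrays left out all 10 again passed, where 32.4% of probes were higher, and each estimate was larger, from 0.39 ± 0.08 for C1qc to 1.03 ± 0.10 for Adgre1.

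For C1qc and Csf1r the medians of the epididymis arrays lay close to those of the Eif2s3y-low mice. C1qc had medians of 0.05 in epididymis-free Eif2s3y-high mice, -0.30 in Eif2s3y-high mice with those transcripts and -0.27 in Eif2s3y-low mice. Csf1r had 0.18, -0.30 and -0.33 in the same order, and Tyrobp 0.43, -0.24 and -0.57. The mean level of the 7 measured adipocyte markers also differed between these sets, with medians of -0.17, -0.64 and 0.24. Its part in the members' differences was not tested.

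At equal Adgre1 the sets differed for some members only, in a fit added after the data were seen. C1qc and Csf1r were then lower in Eif2s3y-high mice, with a difference for C1qc of -0.21 ± 0.05 log2 units (adjusted p = 0.000285), and for Csf1r of -0.08 ± 0.04 (adjusted p = 0.0479, but 0.0757 with ranges of mouse number as a block). Laptm5 was higher by 0.16 ± 0.06 (adjusted p = 0.0210) and Tyrobp by 0.09 ± 0.03 (adjusted p = 0.0187). These were 4 of 9 members, where 64.8% of probes passed in either direction. Without the epididymis arrays, where 56.5% of probes passed, C1qc (-0.17 ± 0.06), Laptm5 (0.20 ± 0.07) and Tyrobp (0.11 ± 0.04) passed and Csf1r did not (-0.03 ± 0.04, adjusted p = 0.608).

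Levels also moved with mouse number, whose meaning the labels do not give. Adgre1 had medians of -0.40, 0.05 and 0.20 in mice 2 to 117, 118 to 246 and 247 to 399, and C1qc had -0.30, -0.07 and -0.14. With those 3 ranges as a block the set difference was 0.85 ± 0.09 for Adgre1 and 0.28 ± 0.07 for C1qc.

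Mice that were high in one macrophage gene tended to be high in the others. All 10 genes lay above their medians in 70 mice and at or below them in 81, and 144 mice were split. Mouse 275, highest in Adgre1 at 1.46, ranked between 3 and 34 for the other 9 genes. Mouse 198, highest in C1qc at 1.41, was the second highest in Adgre1 at 1.44 and in Tyrobp at 1.33. Mouse 56 was highest in Cd53 (1.81) and Cd68 (1.29), yet stood at only -0.02 for C1qc, rank 117. Mouse 37, lowest in Adgre1 at -3.04, held rank 250 for Cd68 at -1.03.

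Over all mice, with the gaps of Mpeg1 and Fcer1g filled by the probe mean, the 45 pairs of genes had Pearson r between 0.66 and 0.96, with a median of 0.83, and Spearman rho between 0.65 and 0.96. In a family of 225 pair tests over all mice and 4 sets, every r had a two-sided permutation p of 1e-05, the smallest that 100000 permutations can give, also after Benjamini-Hochberg adjustment. The largest permutation p of a rho was 3e-05. The members are markers of 1 cell type, chosen with earlier results of these data known, and the sets overlap. These p-values are therefore a description only. Leaving out the 2 mice farthest from the median gave r between 0.65 and 0.96. Cd68 and Tyrobp were the closest pair at 0.96, and Adgre1 with Tyrobp, C1qb with C1qc and Tyrobp with Fcer1g each had 0.94. Cd53 and C1qc were the loosest at 0.66, then Laptm5 and C1qb at 0.68 and Mpeg1 and C1qb at 0.69.

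The covariation was present within each set. The median r of pairs was 0.76 in epididymis-free Eif2s3y-high mice (0.48 to 0.93), 0.83 in Eif2s3y-high mice with epididymis transcripts (0.58 to 0.96) and 0.82 in Eif2s3y-low mice (0.64 to 0.96). In the 3 ranges of mouse number it was 0.83, 0.79 and 0.80. Fcer1g had the highest mean r with the other 9 genes over all mice, 0.88, and Laptm5 the lowest, 0.76, with C1qb at 0.77 and C1qc at 0.77. Fcer1g led within the Eif2s3y-high mice, 0.86, and within the Eif2s3y-low mice, 0.87. C1qb was lowest within the Eif2s3y-high mice, 0.72, and Laptm5 within the Eif2s3y-low mice, 0.71.

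**Figure D2:**
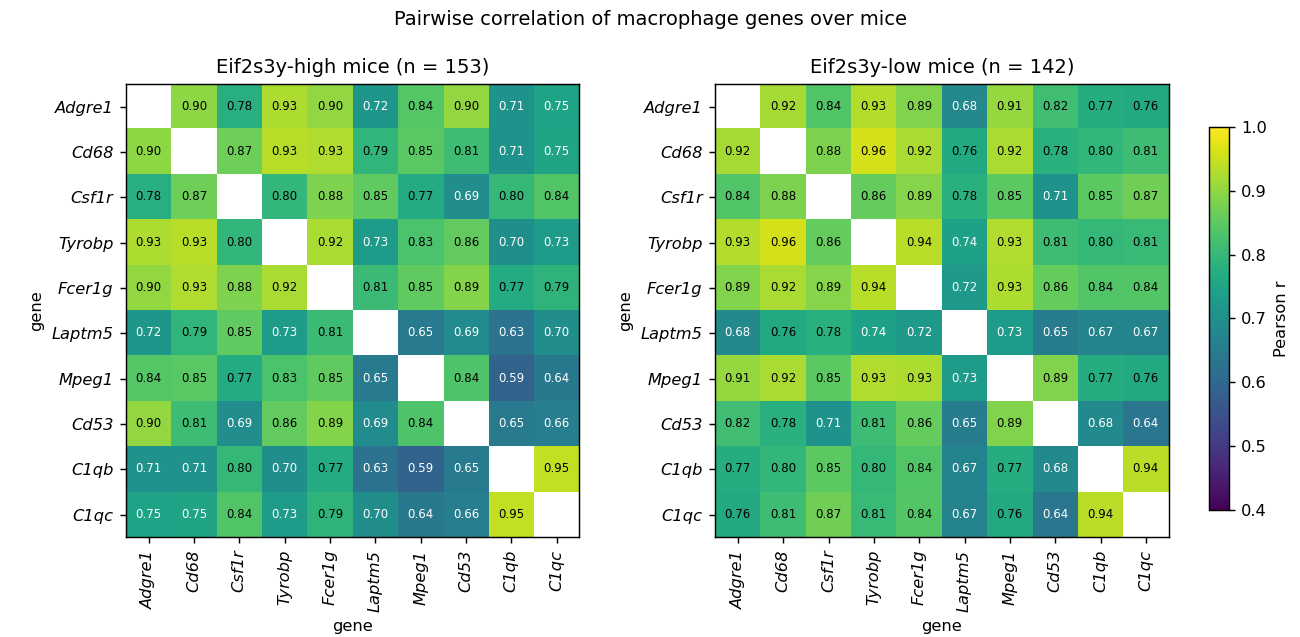
Pearson r of each pair of macrophage genes (genes on both axes) over 153 Eif2s3y-high mice (left) and 142 Eif2s3y-low mice (right), with colour and printed value giving r. C1qb and C1qc form a close pair in both sets, at 0.95 and 0.94, and the lowest mean r with the other genes is that of C1qb in Eif2s3y-high mice (0.72) and of Laptm5 in Eif2s3y-low mice (0.71).

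Adgre1 was then used as the regressor for every probe. Shares of probes are given beside the members' counts as a description, since the members were chosen with earlier results of these data known. All 9 other members rose with it, where 27.6% of 22893 probes were higher and 33.6% lower, and all 9 had an r of at least 0.7, where 2.36% of probes did. All 9 again reached that r within Eif2s3y-high mice, where 2.87% of probes did, and 8 of 9 within Eif2s3y-low mice, where 1.8% did, Laptm5 standing at 0.68. Within epididymis-free Eif2s3y-high mice 6 of 9 reached it, where 2.91% of probes did, with C1qb at 0.63, Laptm5 at 0.69 and C1qc at 0.69. Within Eif2s3y-high mice with epididymis transcripts 8 of 9 did, where 2.27% of probes did, with Laptm5 at 0.69. Tyrobp rose by 0.84 ± 0.02 log2 units (SE) per log2 unit of Adgre1 (r = 0.94, adjusted p = 3.84e-141, n = 295), Mpeg1, with its 9 gaps filled by the probe mean, by 0.83 ± 0.02 (r = 0.91) and Cd68 by 0.81 ± 0.02 (r = 0.93). Cd53 rose by 0.78 ± 0.02 (r = 0.88), Fcer1g, with 1 gap filled, by 0.68 ± 0.02 (r = 0.91) and Laptm5 by 0.61 ± 0.03 (r = 0.75). The slopes of C1qb (0.53 ± 0.03, r = 0.74), C1qc (0.53 ± 0.03, r = 0.75) and Csf1r (0.47 ± 0.02, r = 0.83) were the smallest. Csf1r thus followed Adgre1 more closely than the C1q genes did, at a slightly smaller slope.

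**Figure D3:**
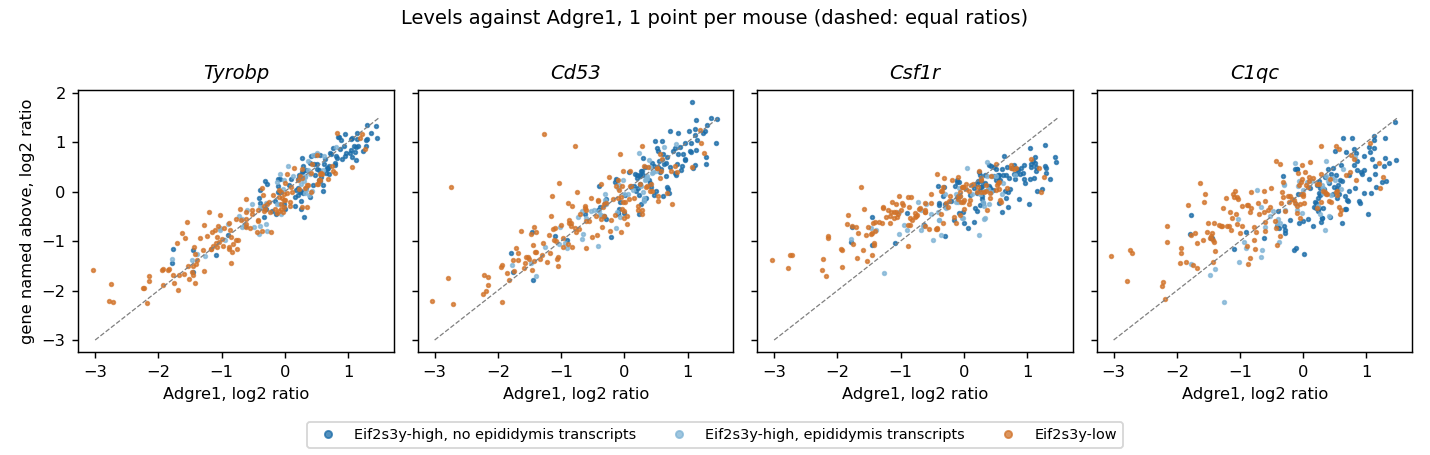
Log2 ratio of Tyrobp, Cd53, Csf1r and C1qc (vertical axis) against that of Adgre1 (horizontal axis), 1 point per mouse, coloured by set, with a dashed line where both are equal. Tyrobp follows Adgre1 tightly (r = 0.94), Csf1r with a small slope (0.47), C1qc loosely (r = 0.75), and 3 Eif2s3y-low mice with Adgre1 at -2.75, -1.27 and -0.78 have Cd53 at 0.09, 1.15 and 0.92.

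The slopes differed between sets for 5 of 9 members, where 31.5% of probes differed. Cd53 rose by 0.90 ± 0.03 per unit of Adgre1 in Eif2s3y-high and 0.69 ± 0.04 in Eif2s3y-low mice, a difference of 0.21 ± 0.06 (limma interaction, adjusted p = 0.00117). C1qb (0.20 ± 0.06), C1qc (0.16 ± 0.06) and Fcer1g (0.11 ± 0.04) also had larger slopes in Eif2s3y-high mice. Mpeg1 had the smaller one there, 0.70 ± 0.04 in Eif2s3y-high and 0.88 ± 0.03 in Eif2s3y-low mice (difference -0.18 ± 0.05, adjusted p = 0.00288). Without the epididymis arrays 1 of 9 members passed, Mpeg1 (-0.20 ± 0.06, adjusted p = 0.0187), where 14.9% of probes did. Cd53 then stood at 0.18 ± 0.07 with an adjusted p of 0.0587.

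The 3 mice in which Cd53 lay farthest above its line on Adgre1 were all Eif2s3y-low, and were picked out after their values were seen. Mouse 145 had -2.75 for Adgre1 and 0.09 for Cd53. Mouse 195 had -1.27 and 1.15, and mouse 127 had -0.78 and 0.92, so Cd53 exceeded its line by 2.26, 2.18 and 1.56 log2 units, against 1.01 in the next mouse. These mice ranked 2, 1 and 3 of 295 for the mean of 11 T cell markers (1.76, 1.81 and 1.75 log2 units) and 4, 1 and 3 for the mean of 7 B cell markers (2.06, 2.70 and 2.24). Over all mice the median was -0.11 for the T cell and -0.41 for the B cell markers. Without these mice r of Cd53 with Adgre1 was 0.91 in place of 0.88, and 0.89 in place of 0.82 within Eif2s3y-low mice. The part of lymphocyte RNA in the Cd53 level was not tested.

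What the members shared beyond Adgre1 was uneven. In fits with Adgre1 as a covariate, added after the data were seen, C1qb and C1qc still had a partial r of 0.87 (0.89 in Eif2s3y-high and 0.85 in Eif2s3y-low mice). Csf1r kept 0.64 with C1qc (adjusted p = 1.53e-33) and 0.57 with C1qb, and also 0.58 with Laptm5 and 0.54 with Cd68. Cd68 and Tyrobp kept 0.69, and Fcer1g kept 0.62 with Csf1r, 0.60 with Cd68 and 0.60 with Tyrobp. Cd53 had 0.01 with C1qc (adjusted p = 0.875), 0.04 with Csf1r (0.611) and 0.10 with Cd68 (0.141), against 0.47 with Fcer1g and 0.43 with Mpeg1. Mpeg1 had 0.05 with C1qb (adjusted p = 0.431) and 0.09 with C1qc (0.191) over all mice. Within sets Mpeg1 had -0.01 and 0.04 with them in Eif2s3y-high mice, and 0.27 and 0.27 in Eif2s3y-low mice.

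The genes outside the list with the highest partial r to each member, also chosen after their values were seen, differed between members. Cd53 was followed by Ptprc, the pan-leukocyte antigen CD45, at 0.78 and by Plek, the phosphoprotein pleckstrin, at 0.77. Cd48, a surface ligand of lymphoid and myeloid cells, came next at 0.72. These values include the 3 mice named above. In Eif2s3y-high and Eif2s3y-low mice Ptprc had 0.66 and 0.82, Plek 0.78 and 0.75 and Cd48 0.60 and 0.78. Mpeg1 was followed by Il7r, a cytokine receptor subunit, at 0.68, Rgs1, a regulator of G protein signalling, at 0.65 and Itgax, the integrin CD11c, at 0.62. Cd68 was followed by Myo1f, a myosin of leukocytes, at 0.86, Slc15a3, an endolysosomal peptide transporter, at 0.78 and Pld3, a lysosomal nuclease, at 0.77. Laptm5 was followed by the transcription factor genes Irf5 at 0.79 and Nfatc1 at 0.78. Tcof1 (0.76), ATP13A2 (0.76) and Sirt7 (0.75) came next for Laptm5. Fcer1g was followed by Gpsm3 at 0.78 and by Ifi30, a lysosomal thiol reductase, at 0.74. Csf1r was followed by Apbb1ip at 0.77 and Epn1 at 0.76, and Tyrobp by Cotl1 at 0.77 and Capg at 0.73. C1qb and C1qc had no gene outside the list above 0.62 and 0.60. Their most negative partial r was larger in size, with Stx12 at -0.65 for C1qb and -0.69 for C1qc.

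At equal Adgre1 the residual of Cd53 had r of 0.57 with the mean of the T cell markers and 0.56 with that of the B cell markers, and 0.42 and 0.44 without the 3 mice named above. For the other members these values lay between 0.135 and 0.42 over all mice, highest for Fcer1g with the B cell markers. They are a description and were not tested.

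Without any covariate, the nearest gene outside the list was Clec4a2, a C-type lectin gene, for Adgre1 (r = 0.95) and Myo1f for Cd68 (0.98). It was Metrnl, a secreted factor, for Tyrobp (0.96), P2ry6, a nucleotide receptor, for Fcer1g (0.96), Plek for Cd53 (0.95) and Rgs1 for Mpeg1 (0.94). Csf1r was nearest to Apbb1ip, an adaptor of integrin activation (0.93), and Laptm5 to Irf5 (0.91). C1qb was nearest to Sh3bgrl3 (0.82) and C1qc to Apbb1ip (0.82). Apart from each other, the C1q genes thus had no neighbour as close as those of the other 8 members.

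After Clec4a2, the genes most positive with Adgre1 were Cd84, Evi2a, Dpep2, Cd200r1, Gusb, Metrnl, Slc11a1, ARL11, Slc37a2, Naip2 and Tbxas1, with r between 0.93 and 0.95. Slc11a1 is a divalent metal transporter of phagosomes, Cd200r1 an inhibitory receptor, Gusb a lysosomal glucuronidase, Naip2 an inflammasome receptor and Tbxas1 the thromboxane synthase. Cd84 rose by 1.11 ± 0.02 log2 units per unit of Adgre1, the steepest of these. Within the sets each of the 12 had r between 0.88 and 0.94 in Eif2s3y-high and between 0.90 and 0.95 in Eif2s3y-low mice.

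The most negative genes were Uck2 (r = -0.77), Ddt (-0.77) and Dnajb2 (-0.77), then Grhpr, Nrbp2, Nectin2, Rhbdl1, Cyp2e1, Wdr6, Zfp503, Ecsit and Oxnad1 with r between -0.75 and -0.71. Cyp2e1, a cytochrome P450 that is also expressed in fat cells, fell by 1.34 log2 units per unit of Adgre1 (SE 0.07), with r of -0.48 in Eif2s3y-high mice (-0.70 in the epididymis-free ones) and -0.73 in Eif2s3y-low mice. Grhpr, the glyoxylate and hydroxypyruvate reductase, had r of -0.82 in Eif2s3y-high and -0.67 in Eif2s3y-low mice.

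Genes with related roles were read from the same fit, by lists chosen by function. Over all 11453 genes the median r with Adgre1 was -0.04 and 347 genes (3.03%) reached 0.7. Of all probes, 27.6% rose and 33.6% fell by the adjusted p. Among 9 measured complement partners, 8 rose and 1 fell, with a median r of 0.46. Itgb2, the beta chain of the complement receptor integrins, rose by 0.93 ± 0.03 per unit (r = 0.90), Itgax with r of 0.86 and C3ar1, the receptor for the fragment C3a, with 0.85. C2, the protease that acts downstream of C1q, named after its value was seen, was the one that fell (r = -0.51, adjusted p = 5.88e-20).

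Of 13 ligands of CSF1R and lineage factors, 7 rose and 3 fell, where 27.6% of all probes rose and 33.6% fell. Their median r was 0.36. Irf5, a transcription factor of inflammatory macrophages, had r of 0.86, Spi1 had 0.80 and Tfec, a factor of the MiT family, had 0.71. Csf1, the ligand gene of CSF1R, did not pass (r = 0.05, adjusted p = 0.422), with r of 0.27 in Eif2s3y-high and -0.13 in Eif2s3y-low mice. Il34, C1qa and Trem2 were not analysed here.

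Receptors that signal through the ITAM adaptors, or bear related motifs, rose in 10 of 14 cases and fell in 1, with a median r of 0.33. For each list in this paragraph the share of all probes was 27.6% rising and 33.6% falling. Clec7a, the beta-glucan receptor dectin-1, had r of 0.91, Sirpa, an inhibitory receptor for CD47, had 0.86 and Pira1, of a family of near-identical genes whose probe may not separate them, had 0.84. Downstream signalling genes rose in 17 of 20 cases and fell in 2, with a median r of 0.68. Ncf4 (0.84) and Cybb (0.84), subunits of the phagocyte NADPH oxidase, and Vav1 (0.83), an exchange factor, led that list. Of 15 tetraspanin and lysosomal genes 9 rose and 4 fell, with a median r of 0.77, and the cathepsin genes Ctsk (0.88) and Ctsb (0.88) and the legumain gene Lgmn (0.88) were highest.

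**Figure D4:**
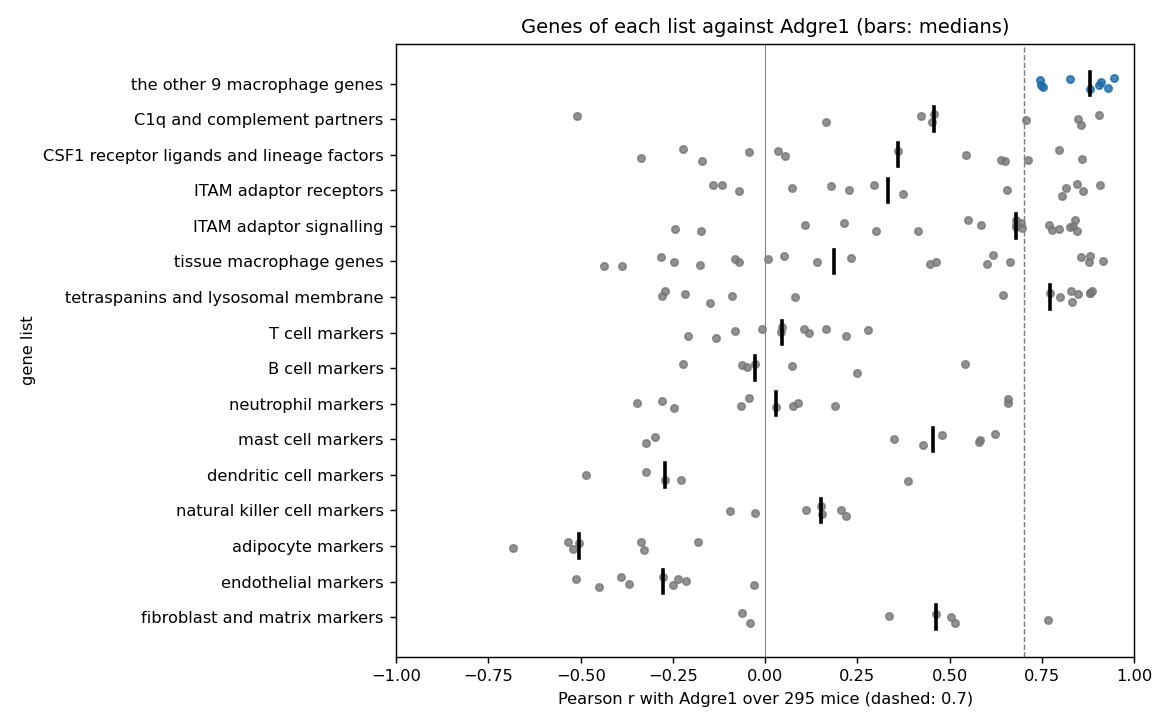
Pearson r with Adgre1 over 295 mice (horizontal axis) of the measured genes of each list (rows), 1 point per gene, with black bars at list medians and a dashed line at 0.7. The other 9 macrophage genes lie between 0.74 and 0.94, and adipocyte markers all lie below 0.

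Other macrophage genes moved both ways. Of 20 measured tissue macrophage genes 11 rose and 5 fell with Adgre1, with a median r of 0.19, where 27.6% of all probes rose and 33.6% fell. Msr1, the scavenger receptor A, rose by 0.97 ± 0.02 per unit (r = 0.92). The lysozyme genes Lyz1 (0.88) and Lyz2 (0.88), close copies whose probes may not separate them, rose too, as did the mannose receptor gene Mrc1 (0.86). The 5 that fell, named after their values were seen, were Cbr2 (-0.44), the haemoglobin scavenger receptor gene Cd163 (-0.39), the phosphatidylserine receptor gene Timd4 (-0.28), the sialoadhesin gene Siglec1 (-0.25) and Fcna (-0.18). Several of these mark long-lived resident macrophages in mouse tissues, but falls were not more frequent in this list than over all probes. Cd163 had r of -0.53 in epididymis-free Eif2s3y-high, -0.18 in all Eif2s3y-high and -0.30 in Eif2s3y-low mice. In the same order Timd4 had -0.10, 0.08 and -0.22, and Cbr2 had -0.33, -0.17 and -0.21. Within those sets 3, 1 and 3 of the 20 genes fell, where 21.9%, 21.1% and 22.2% of probes were lower. Of 5 measured genes among the further markers used to check the label, Msr1, Lyz2 and Mrc1 rose, Cd163 fell and the chemokine receptor gene Cx3cr1 did not pass (r = -0.07, adjusted p = 0.292).

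Markers of other cell types moved both ways, where 27.6% of all probes rose and 33.6% fell with Adgre1. Of 7 adipocyte markers all fell with Adgre1, led by Slc2a4, the insulin-responsive glucose transporter gene (r = -0.68), Car3 (-0.54) and the resistin gene Retn (-0.52). Of 9 endothelial markers 8 fell, led by Kdr (-0.51), Esam (-0.45) and Tie1 (-0.39). Of 7 fibroblast and matrix markers 5 rose, led by Mfap5, a microfibril gene (0.76), Col1a2 (0.51) and Pdgfra (0.50). The median r of these lists was -0.50 for adipocyte, -0.28 for endothelial and 0.46 for fibroblast markers. Within all Eif2s3y-high mice 5 of 7 adipocyte and 2 of 9 endothelial markers fell (median r -0.22 and -0.09), where 21.1% of probes did. Within epididymis-free ones 7 of 7 and 7 of 9 fell (-0.66 and -0.47), where 21.9% did. Among Eif2s3y-low mice 5 of 7 and 4 of 9 fell (-0.48 and -0.19), where 22.2% did. Fibroblast markers rose in 6, 5 and 5 of 7 cases in the same order, where 29.6%, 20.9% and 17.9% of probes rose.

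Among blood cells, T cell markers rose in 3 and fell in 2 of 11 cases (median r = 0.05; Thy1 0.28, Cd2 0.22, Cd4 -0.21), and B cell markers rose in 2 and fell in 1 of 7 (median -0.03; Cd22 0.54, Pax5 0.25, Fcer2a -0.22). The counts of this paragraph over all mice stand beside 27.6% of all probes rising and 33.6% falling. Within sets Cd4 had r of 0.07 in Eif2s3y-high and -0.09 in Eif2s3y-low mice, and Fcer2a 0.04 and -0.11. Neutrophil markers rose in 3 and fell in 3 of 11 (median 0.03; Csf3r 0.66, S100a8 0.66, Mmp9 -0.35), and natural killer cell markers rose in 4 of 7 (median 0.15; Klrk1 0.22, Klrd1 0.20, Eomes 0.15). Of 5 dendritic cell markers 1 rose and 4 fell (median -0.27; Itgae -0.49, Flt3 0.39, Ccr7 -0.32). None of the 8 epididymis markers passed over all mice (Rnase10 -0.07, Gpx5 -0.06, Lcn9 -0.04), 0 of 8 with limma and 0 of 8 at an unadjusted p under 0.05. Within all Eif2s3y-high mice, which pool arrays with and without these transcripts, all 8 fell with Adgre1, where 21.1% of probes did. Within the epididymis-free ones 1 of 8 fell, where 21.9% of probes did, and within those with epididymis transcripts 0 of 8 passed.

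Mast cell markers followed Adgre1 in a way that differed between sets. Of 8, 6 rose and 2 fell over all mice, where 27.6% of probes rose and 33.6% fell. Cpa3, the mast cell carboxypeptidase, had r of 0.62, and the protease genes Cma1 and Mcpt4 had 0.58 and 0.58. All 8 had a larger slope in Eif2s3y-high than in Eif2s3y-low mice, where 20.0% of probes did, and all 8 again without the epididymis arrays, where 7.57% did. Cpa3 had r of 0.71 in Eif2s3y-high and 0.51 in Eif2s3y-low mice. The mean level of the 8 markers ran from -1.27 through -0.25 to 2.35 in Eif2s3y-high mice, and from -0.996 through -0.33 to 0.42 in Eif2s3y-low mice. Fcer1g is used by mast cells as well, and the part of mast cell RNA in its level was not tested.

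T cell markers rose with Adgre1 in 9 of 11 cases within Eif2s3y-high mice, where 29.6% of probes were higher, and in 4 of 11 within the epididymis-free ones, where 20.9% were. Within Eif2s3y-low mice limma called 0 of 11, and 0 of 11 had an unadjusted p under 0.05, where 17.9% of probes were higher. The slope itself was larger in Eif2s3y-high mice for 5 of 11, where 20.0% of probes were, and for 1 of 11 without the epididymis arrays, where 7.57% were.

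The slope of the members on Lep, the leptin gene of fat cells, differed between the sets of mice. Lep itself ran from -1.16 through 0.02 to 1.27 log2 units in Eif2s3y-high and from -1.38 through 0.08 to 0.97 in Eif2s3y-low mice, so the sets covered about the same range. Within Eif2s3y-low mice 9 of 10 members rose with Lep, where 31.8% of probes did. Within epididymis-free Eif2s3y-high mice all 10 slopes were negative and 6 passed as falling, where 16.8% of probes fell.

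Adgre1 changed by -0.24 ± 0.14 log2 units per log2 unit of Lep in epididymis-free Eif2s3y-high mice (SE, adjusted p = 0.167), and rose by 0.99 ± 0.15 in Eif2s3y-low mice (adjusted p = 1.91e-08). C1qc fell by 0.48 ± 0.12 in epididymis-free Eif2s3y-high mice (adjusted p = 0.0008) and rose by 0.63 ± 0.11 in Eif2s3y-low mice. Laptm5 fell by 0.63 ± 0.12 in epididymis-free Eif2s3y-high mice and had a slope of 0.19 ± 0.13 in Eif2s3y-low mice (adjusted p = 0.181), where it was the member that did not pass. Csf1r, Fcer1g, Cd53 and C1qb also fell in epididymis-free Eif2s3y-high mice, by 0.32 to 0.59, and rose in Eif2s3y-low mice, by 0.40 to 0.65. Mpeg1 (-0.08 ± 0.12), Cd68 (-0.26 ± 0.14) and Tyrobp (-0.28 ± 0.13) did not pass in epididymis-free Eif2s3y-high mice, and rose by 0.88, 0.86 and 0.81 in Eif2s3y-low mice.

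The difference in slope was tested by an interaction of Lep with the set. All 10 members had a smaller slope in Eif2s3y-high mice, where 13.6% of probes did. The difference was -0.97 ± 0.19 for Adgre1 (limma interaction, adjusted p = 1.62e-05), -0.88 ± 0.17 for Cd68 and -0.83 ± 0.15 for Fcer1g (2.84e-06). It was smallest in size for Csf1r, -0.56 ± 0.12, and Laptm5, -0.55 ± 0.17 (0.00657). Without the epididymis arrays all 10 passed again, where 10.3% of probes did, with differences between -1.24 ± 0.22 for Adgre1 and -0.80 ± 0.13 for Csf1r. With the ranges of mouse number as a block, Adgre1 had -1.10 ± 0.19.

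In the 48 mice with epididymis transcripts, Laptm5 (-0.71 ± 0.23) and Cd53 (-0.65 ± 0.23) fell with Lep, where 5.44% of probes did, and the other 8 slopes lay between -0.55 and -0.27 without passing. Over all 153 Eif2s3y-high mice, where 20.7% of probes fell, Laptm5 (-0.35 ± 0.11) and C1qb (-0.26 ± 0.11) fell and Adgre1 had 0.02 ± 0.12 (adjusted p = 0.902). Lep medians were 0.14 in epididymis-free Eif2s3y-high mice and -0.19 in Eif2s3y-high mice with epididymis transcripts, so the pooled Eif2s3y-high slopes mix these 2 levels.

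**Figure D5:**
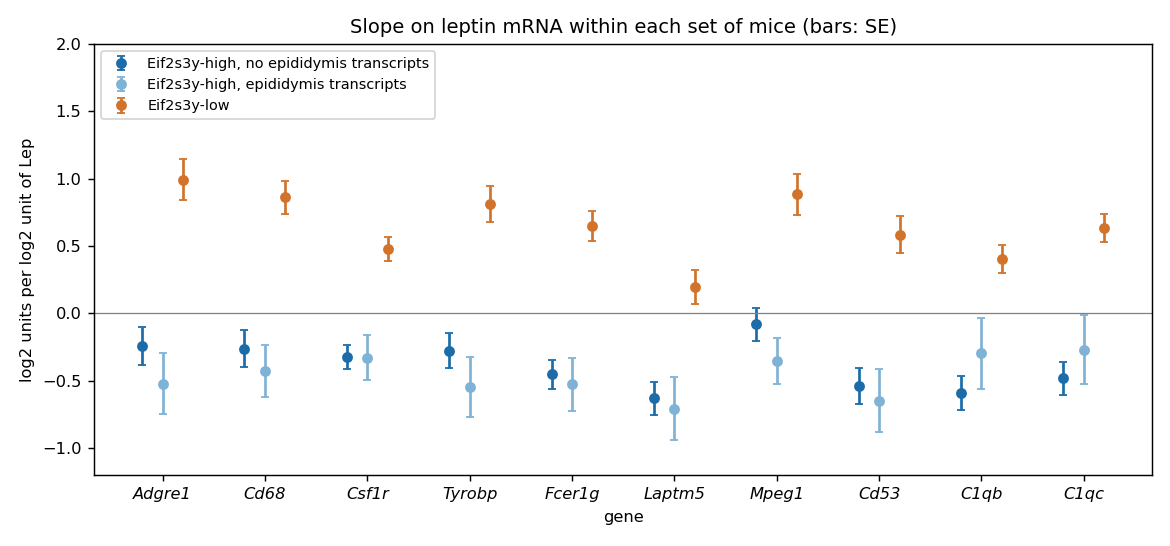
Slope of each macrophage gene on Lep, in log2 units per log2 unit (vertical axis), by gene (horizontal axis), within epididymis-free Eif2s3y-high mice, Eif2s3y-high mice with epididymis transcripts and Eif2s3y-low mice, with bars of 1 SE. Points of both Eif2s3y-high sets lie below 0 and those of Eif2s3y-low mice above it, from 0.19 for Laptm5 to 0.99 for Adgre1.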

How the data were processed

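The values deposited by the authors for 23387 probes were read as log10 ratios of mouse (Cy3) over pool (Cy5). The dyes are per the labels. Background correction and normalization are not given in the sources used here, and neither are scale, centring and direction. If all mice gave equally to the pool, unlogged ratios average 1. Taken as mouse over pool, the Y-linked Eif2s3y averaged 1.17 on a log10 reading, 0.81 on a log2 reading and 0.83 on a natural-log reading, and the members 0.90 to 1.05, 0.94 to 0.98 and 0.92 to 0.98. The inverse ratio of Eif2s3y averaged 21.7 on the log10 reading. The values thus give the direction but leave the base unknown, and log10 was assumed. Array medians, as log2, lay between -0.17 and 0.13. The labels count 295 mice in the series description and 330 in the sample descriptions, and the number in 1 sample's title differs from its source name (the title was used).

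Values were multiplied by 3.32 to give log2. Probes measured on at least 90% of arrays were kept (22894, 493 left out), and 7762 gaps were filled with the probe mean, among them 9 of Mpeg1 and 1 of Fcer1g. Symbols come from the platform's annotation (13644 probes with 1 symbol, 48 with several, 9695 with none), updated through Entrez identifiers to RefSeq genes of GRCm38.p6 (12652 matched). A gene is its most variable probe with 1 symbol. Epididymis transcripts were scored as the mean z-score of 8 measured markers, with a boundary of 1 (arrays with them at 1.76 or more, others at 0.71 or less).

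Probes were fitted with limma 3.58.1 in R 4.3.3 on Adgre1, on Lep, on the set (Eif2s3y-high minus Eif2s3y-low) and on interactions with the set, with Benjamini-Hochberg adjustment over probes and a threshold of 0.05. Pairs of members were tested with 100000 two-sided permutations. Other steps ran in Python 3.11.15 (matplotlib 3.10.9 for figures, SciPy 1.17.1, pandas 2.3.3, NumPy 2.4.6). The fits were tested on simulated data with known slopes and independent noise per probe, unlike the correlated probes here. Slopes of 0.5 and 1 SD per SD of Adgre1 were called in 100% of the changed probes. A slope difference between sets was called in 56% of them at 0.5 and in 100% at 1.

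The members and lists were chosen with earlier results of these data known. Genes named outside the members are the 12 most positive and 12 most negative with Adgre1, the nearest gene of each member, the 3 of each list with the largest absolute r, the macrophage and epididymis markers, Eif2s3y, Lep, Spi1 and Csf1. Others are said to be chosen after their values were seen.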

Additional observations from a re-analysis of the deposited data

Results flagged for a closer look

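The slope of 5 macrophage genes on Adgre1 differed between sets of mice by the interaction term of limma. Eif2s3y-high minus Eif2s3y-low it was 0.21 for Cd53, 0.20 for C1qb, 0.16 for C1qc, 0.11 for Fcer1g and -0.18 for Mpeg1, in log2 units per log2 unit of Adgre1 (adjusted p between 0.00117 and 0.0339, n = 153 and 142). Without the arrays with epididymis transcripts Mpeg1 alone of the 9 passed, at -0.20.

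The slope on Lep differed between the same sets for each of the 10 genes. Eif2s3y-high minus Eif2s3y-low it was -0.97 for Adgre1, -0.88 for Cd68, -0.86 for Tyrobp, -0.83 for Fcer1g, -0.82 for C1qc, -0.79 for Cd53 and -0.77 for Mpeg1. It was -0.66 for C1qb, -0.56 for Csf1r and -0.55 for Laptm5, in log2 units per log2 unit of Lep (limma interaction, adjusted p between 2.84e-06 and 0.00657). The members are correlated with each other, so these are not 10 separate observations.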

How the results depend on the processing

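Of 237 results under 1217 alternative values, 4 changed sign. They were r with Adgre1 of the epididymis genes Rnase10 (0.0375), Gpx5 (0.0420) and Lcn9 (0.0760) with 3 ranges of mouse number as a block, and the set difference of Fcer1g at equal Adgre1 without the epididymis arrays (0.0104). None of these had passed in the first fit. The count of probes whose slope on Adgre1 was larger in Eif2s3y-high mice was 4568, and 2911 with array medians removed and 1733 without the epididymis arrays. The count of smaller slopes was 2641, and 1688 without those arrays. Members that differed numbered 5, and 3 with array medians removed, 3 of the 7 tested with only probes measured on all arrays, and 1 without the epididymis arrays. For Lep, 3107 probes had a smaller slope in Eif2s3y-high mice, and 4986 with array medians removed, and 5121 a larger one, and 2925 without the epididymis arrays. The median SD of the members was 0.77 log2 units, and would be 0.23 and 0.33 had the deposited values been log2 or natural logs. Of the single genes, Csf1 passed with Cd68 in place of Adgre1 as the regressor (r = 0.18, adjusted p = 0.00369), the falls of Cd4 and Fcer2a did not pass with the set as a covariate (r = -0.04 and -0.06), and Eomes did not without the epididymis arrays (r = 0.13). Rnase10 (-0.27), Gpx5 (-0.29) and Lcn9 (-0.28) passed as lower with the set as a covariate. At equal Adgre1 the set difference of Mpeg1 passed with the ranges of mouse number as a block (0.11, adjusted p = 0.0291) and with gaps left missing (0.10, adjusted p = 0.0496). The causes were not tested. The median r of pairs lay between 0.79 and 0.84 under the alternatives run, and the set and Lep differences of all members tested passed under each. With the set as a covariate 8 of 9 members reached an r of 0.7 with Adgre1.

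Averaging a gene's probes could not be run, since each member has 1 probe, and leaving out mice at the limit of the deposited range removes none, since no member had such a value. No paired analysis was possible because the labels give 1 group in which every mouse has its own number.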
